A study of Mus musculus with 3 samples.

Results

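Histone genes named Hist1 to Hist4 encode most of the core and linker histones that package newly copied DNA. Both deposited tables listed RNA recovered with an antibody against Mettl3 or Zfp217. The symbols were matched by pattern in them, and 10 of the 8547 gene symbols in either table were found. The Zfp217 table listed 10 of them among 5933 symbols. The Mettl3 table listed 1 among 6971 symbols, Hist1h2be, which was in both. The cells were CCE, an untreated mouse embryonic stem cell line grown without feeders in serum and leukemia inhibitory factor. Nuclear lysate was immunoprecipitated (RIP) with an antibody against Mettl3, the methyltransferase that places m6A on mRNA, or against Zfp217, a zinc finger protein of chromatin complexes, and an input library was sequenced beside them. There was 1 library of each kind, so there are no p-values, and each ratio is between single libraries rather than conditions. A RIP with a control antibody was not analysed here.

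Most mRNAs of this family are made in S phase, have no introns, and end in a conserved stem-loop instead of a poly(A) tail. The stem-loop is bound by Slbp, and the transcript is cut just after it by a complex that holds the U7 snRNP. Some of these genes also give longer, polyadenylated transcripts that run past the stem-loop. The labels name the library kit and do not say whether RNA was selected on its tail. The pattern also took Hist1h1t and Hist1h2ba, which encode the testis forms of H1 and H2B, and the H2B pseudogene Hist3h2bb-ps, so the matched set is wider than its working name.

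By class, the tables listed 1 of 6 annotated symbols of H1, the linker histone, 3 of 20 of H2A, 5 of 19 of H2B and 1 of 13 of H4. None of 12 H3 symbols was listed. In all, 60 of 70 symbols in the GENCODE M21 annotation were not listed in either table. The share of all annotated genes that were listed was not computed. These counts therefore do not show whether histones, or any class of them, were listed more or less often than other genes. The lowest RIP value in each table was 1 FPKM (fragments counted on a transcript, divided by its length and by library size), and the lowest RIP to input ratio where the input was above 0 was 1.5. M21 held 88.3% of the transcripts listed for Mettl3 and 88.8% of those listed for Zfp217, so it differs from the annotation the authors used. An unlisted histone could have been below either limit or absent from the authors' annotation, and neither table shows which. No transcript with a ratio under this limit was listed, so the direction of the listed ratios is set by the tables.

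The stem-loop is shown for the 6 listed transcripts whose M21 model (build GRCm38) holds it, because the annotated ends of the family turn on this element. Letters are DNA, 5′ to 3′ on the transcript strand, and capitals mark the stem-loop of 16 bases.
Hist1h1t: ccaaaGGCTCTTTTAAGAGCCactta
Hist1h2ac: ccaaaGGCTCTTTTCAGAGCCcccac
Hist1h2ae: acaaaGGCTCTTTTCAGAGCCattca
Hist1h2be: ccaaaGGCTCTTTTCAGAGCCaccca
Hist3h2ba: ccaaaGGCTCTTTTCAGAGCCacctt
Hist1h4m: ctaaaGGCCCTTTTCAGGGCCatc
The capitals formed 3 different sequences, and 4 of the 6 transcripts had the same one. The search was for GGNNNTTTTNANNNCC on the transcript strand with all 6 base pairs of the stem possible, and 81 of 58797 protein-coding M21 transcripts (0.138%) held it, 46 of them from the histone pattern. In the 6 listed transcripts the stem-loop began 29 to 34 bases after the last base of the stop codon.

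**Figure D1:**
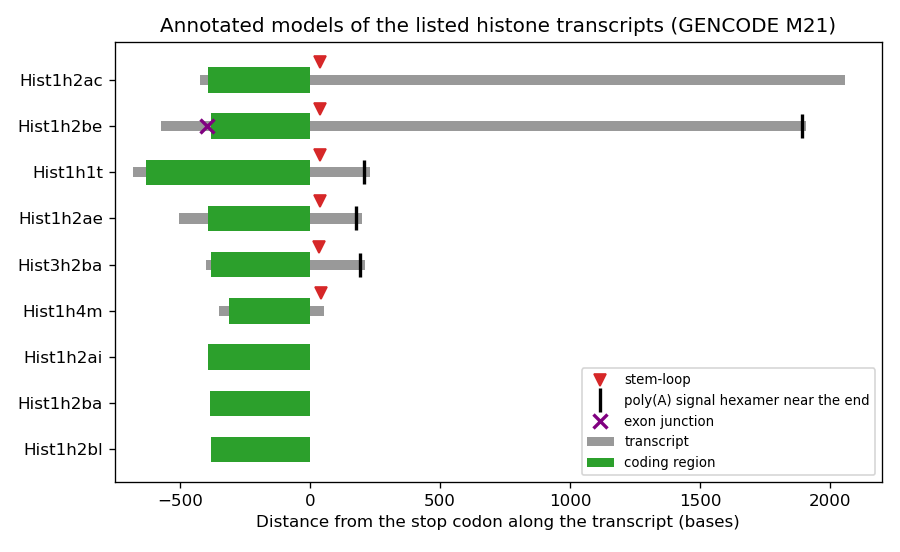
Annotated models of the 9 protein-coding listed transcripts, aligned at the stop codon, with distance along the transcript in bases on the x axis. Green bars are coding regions, grey bars whole transcripts, triangles the stem-loop, black ticks a poly(A) signal hexamer within 40 bases of the end, and the cross an exon junction; 5 models run 151 to 2010 bases past the stem-loop and 3 have no untranslated region.

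The models differed most downstream of the stem-loop. The Hist1h4m model ended 3 bases after it. The others ran on by 151 bases (Hist1h2ae), 169 (Hist3h2ba), 185 (Hist1h1t), 1861 (Hist1h2be) and 2010 (Hist1h2ac). A poly(A) signal, AATAAA or ATTAAA on the transcript strand, ended within 40 bases of the 3′ end in 4 of the 9 listed protein-coding models (Hist1h1t, Hist1h2ae, Hist1h2be and Hist3h2ba), against 15 of 63 histone models not listed and 49.7% of all protein-coding transcripts. A stem-loop with at least 100 bases after it was in 5 of 9 listed and 19 of 63 unlisted models. Hist1h2bl, Hist1h2ai and Hist1h2ba were annotated as coding region only (381 to 393 bases), so no stem-loop could be found in them, and coding-only models were 10 of the 63 unlisted ones. The models lie in the large Hist1 cluster on chromosome 13 and the Hist3 cluster on chromosome 11. Examples in GRCm38 are Hist1h2ae at chr13:23570517-23571220 (minus strand), Hist1h2ac at chr13:23681467-23683948 (minus), Hist1h1t at chr13:23695814-23696725 (plus), Hist1h2bl at chr13:21715763-21716143 (minus), Hist1h2ai at chr13:21716422-21716814 (plus) and Hist3h2ba at chr11:58948920-58949533 (plus). These lengths are from M21, not from the annotation the authors used, and these shares were not tested. GGACT, a common form of the m6A sequence context, was searched on the transcript strand. It was in Hist1h2ac (2 copies) and Hist1h2ae (1 copy) and not in the other 7 listed protein-coding models, Hist1h2be included. Of the histone models, 2 of 9 listed and 22 of 63 unlisted ones held GGACT. So did 49.2% of protein-coding transcripts of 350 to 750 bases and 92.0% of those of 2400 to 2600 bases. The GGACT shares were not tested either.

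**Figure D2:**
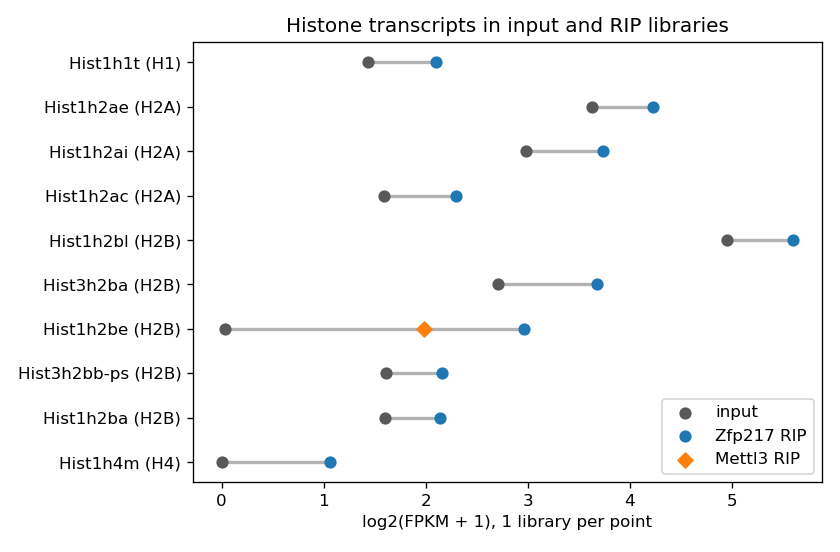
Level of each listed histone transcript, as log2(FPKM + 1) on the x axis, with 1 library per point, in the input (grey), the Zfp217 RIP (blue) and, for Hist1h2be alone, the Mettl3 RIP (orange); input values are those of the Zfp217 table. Hist1h2bl was the most abundant at 30.0 FPKM in the input, and Hist1h2be was near 0 in the input.

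The first comparison asked which of these transcripts were higher in the Zfp217 RIP than in the input. Transcripts were kept where the mean of RIP and input was at least 1 FPKM, and the rule of size was at least 2-fold on the log2((RIP + 1)/(input + 1)) scale, which understates the ratio of low transcripts. Of the 10 genes, 9 were kept and 1, Hist1h2be, passed (11.1%), while 49.1% of all 5248 kept transcripts did. The median log2 ratio was 0.67 over the 9 histone genes and 0.98 over all kept transcripts. As a plain FPKM ratio Hist3h2ba was also at least 2-fold higher, which made 2 of 9, against 66.7% of all kept transcripts. With an input of at least 1 FPKM, 0 of 8 histone genes passed on the log2 scale, against 20.7% of 2511 transcripts, and as a plain ratio 1 of 8 did, against 39.3%. Among protein-coding transcripts of up to 1000 bases with such an input, 0 of 6 histone genes passed on the log2 scale and 1 of 6 as a plain ratio, against 30.5% and 51.3% of 226. The plain ratios of the 8 ran from 1.56 to 2.13 with a median of 1.74, and all 2511 transcripts had a median of 1.87 (quartiles 1.65 and 2.31). Of the 8 histone ratios, 5 were below that median. The histone median level in the input was 3.79 FPKM, against 2.30 over the 2511 transcripts.

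Most low FPKM values of short transcripts were whole multiples of what 1 fragment is worth, so fragment numbers were estimated from the FPKM. The 95% intervals given with ratios rest on these rounded numbers, cover counting error only and do not allow for the 1.5-fold limit of the tables. They lay above 1 for 4 of the 8 histone transcripts with an input of at least 1 FPKM and spanned 1 for the other 4. The share over all listed transcripts with such an input was not computed. These counts therefore do not set histones apart from other transcripts.

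Among H2A genes, which encode one of the 4 core histones, Hist1h2ae was at 11.4 FPKM in the input and 17.8 in the Zfp217 RIP. This was a ratio of 1.56 (interval 1.04 to 2.36) from about 71 fragments in the RIP and 39 in the input. Hist1h2ai was at 6.92 FPKM in the input and 12.4 in the Zfp217 RIP, a ratio of 1.79 (0.855 to 4.45). Hist1h2ac was lower, at 2.02 FPKM in the input and 3.91 in the Zfp217 RIP, and its ratio of 1.93 (1.22 to 3.08) rested on about 65 and 29 fragments. The order of the H2A levels in FPKM was the same in both libraries, with Hist1h2ae highest and Hist1h2ac lowest.

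Among H2B genes, another core histone, Hist1h2bl had the highest level of all members, at 30.0 FPKM in the input and 47.6 in the Zfp217 RIP. Its level was above that of 98.5% of transcripts in the RIP column, and its ratio of 1.59 (1.10 to 2.39) was above that of 15.7% of transcripts with an input of at least 1 FPKM. Hist1h2bl and Hist1h2ai are a divergent pair on chromosome 13, with 278 bases between the annotated genes. Hist3h2ba, from the small Hist3 cluster on chromosome 11, was at 5.52 FPKM in the input and 11.8 in the Zfp217 RIP. Its ratio of 2.13 (1.14 to 3.997) was the highest among members with an input of at least 1 FPKM. The neighbouring pseudogene Hist3h2bb-ps was at 2.05 FPKM in the input and 3.48 in the Zfp217 RIP, a ratio of 1.70 (0.458 to 7.76) from about 8 and 4 fragments. The testis H2B gene Hist1h2ba was at 2.02 FPKM in the input and 3.41 in the Zfp217 RIP, and about 6 and 3 fragments gave a ratio of 1.69 (0.365 to 10.6). For Hist3h2bb-ps and Hist1h2ba, as for Hist1h2ai, a difference from the input was not detectable at this depth.

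The only H1 gene listed, Hist1h1t, was at 1.71 FPKM in the input and 3.30 in the Zfp217 RIP. Its ratio was 1.93 (0.796 to 5.12), from about 18 and 8 fragments, and this interval also spanned 1. The only H4 gene listed, Hist1h4m, was listed at 0 in the input and at 1.08 FPKM after Zfp217 RIP. The RIP value came from about 2 fragments, and 3 fragments in the input, the limit that a count of 0 allows, would be 1.91 FPKM, so no fold is given and no difference was detectable. It was the member left out by the filter on low values.

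**Figure D3:**
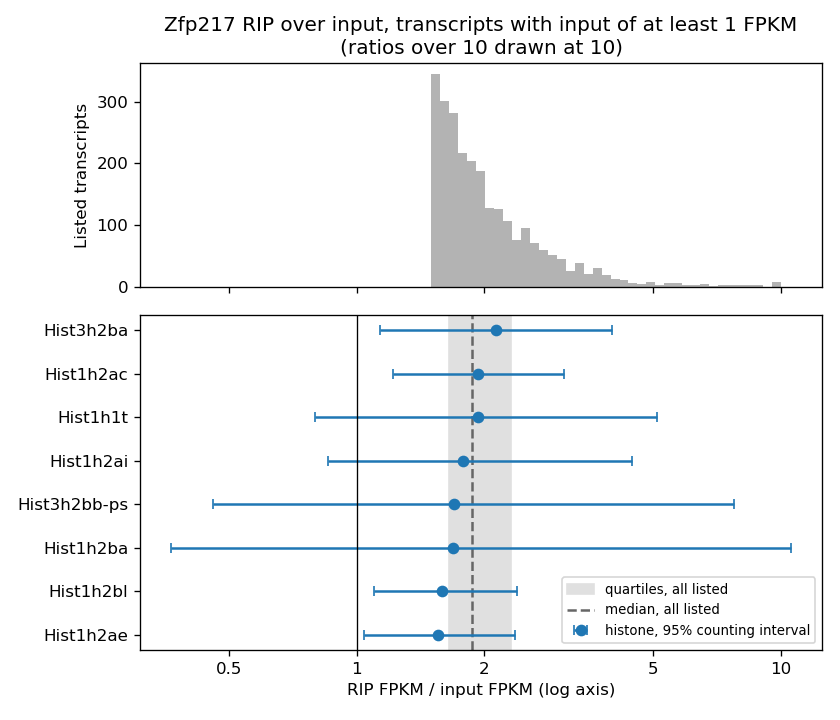
Upper panel, number of listed transcripts by Zfp217 RIP to input ratio (log axis), for transcripts with an input of at least 1 FPKM. Lower panel, the 8 histone transcripts with 95% counting intervals, the median of all such transcripts (dashed, 1.87) and their quartiles (grey band). The histone ratios lie between 1.56 and 2.13, and 4 of the 8 intervals span 1. The share of all such transcripts whose intervals span 1 was not computed.

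Hist1h2be, an H2B gene, was the only member listed for both RIPs, and its input was near 0. Inputs lower still were seen for 36.0% of the transcripts listed for Mettl3 and 44.6% of those listed for Zfp217. The listed transcript, ENSMUST00000091704, was at 6.78 FPKM in the Zfp217 RIP and 2.94 in the Mettl3 RIP, and its input value was 0.0241 FPKM in the Zfp217 table and 0.0205 in the Mettl3 table. The RIP values correspond to about 112 and 68 fragments, and the input values to less than 1 fragment. No fold is given, because the gene has 3 annotated transcripts and fragments can be split among them: 97.9% of the 50-base windows of this transcript are also in the transcript ENSMUST00000051091 of the same gene, which neither table listed. The log2((RIP + 1)/(input + 1)) was 2.93 for Zfp217 and 1.95 for Mettl3. These are values of 1 transcript and not of the gene as a whole. It was also the only listed member with more than 1 exon in M21, a first exon of 179 bases followed by 1 that holds the coding region and the stem-loop. The transcript spans chr13:23583670-23621094 on the minus strand (GRCm38).

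The Mettl3 RIP was then set against the input in the same way. Hist1h2be was the 1 member listed and kept, and it passed the 2-fold rule, as did 51.1% of 6667 kept transcripts (71.3% as a plain ratio). With an input of at least 1 FPKM no histone gene was left, and 33.8% of 3725 transcripts passed (54.3% as a plain ratio). The shares were 39.9% and 60.9% of 138 protein-coding transcripts of up to 1000 bases. For the 9 genes listed for Zfp217 alone, a Mettl3 level that would have met both limits seen in the Mettl3 table ranged from 1 FPKM for Hist1h4m to 44.5 FPKM for Hist1h2bl. These limits were 16.9 FPKM for Hist1h2ae, where the Zfp217 RIP had 17.8, 10.3 for Hist1h2ai, where it had 12.4, and 8.19 for Hist3h2ba, where it had 11.8. Mettl3 values of these genes were not analysed here, and whether they differed from the Zfp217 values was not tested.

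The series has 1 input library, so the 2 ratios of a transcript share it. The input columns of the tables differed by a factor of 0.989 (within 0.001 for 94.7% of 2521 shared transcripts). Hist1h2be did not follow this factor, with inputs of 0.0205 FPKM for Mettl3 and 0.0241 for Zfp217, each worth less than 1 fragment. The overlap was 1 gene, 100% of the histone genes in the Mettl3 table and 10% of those in the Zfp217 table. Over all transcripts, the 4026 in both tables were 42.4% and 49.6%. In the RIPs themselves Hist1h2be was 2.30 times as high in FPKM for Zfp217 as for Mettl3 (counting interval 1.69 to 3.16), while the median over the 4026 transcripts was 0.937 (quartiles 0.694 and 1.27), and 95.4% of them had a lower value. Fragments can be divided differently between the transcripts of this gene in each library, and the part this plays was not tested.

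**Figure D4:**
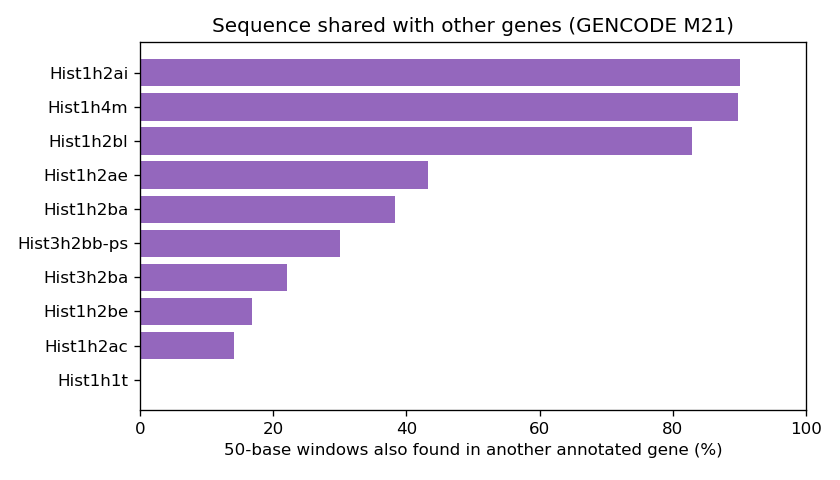
Share of 50-base windows of each listed histone transcript that also occur in another annotated gene of GENCODE M21, in percent on the x axis. Hist1h2ai, Hist1h4m and Hist1h2bl exceed 80%, and Hist1h1t has none.

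Histone coding regions are nearly the same between copies, so their reads can belong to several genes. Read length is not given in the sources used here, and windows of 50 bases were used to describe this. Of the windows, 90.1% in Hist1h2ai, 89.8% in Hist1h4m and 82.8% in Hist1h2bl also occurred in another annotated gene. The share was 43.2% in Hist1h2ae, 38.2% in Hist1h2ba, 16.8% in Hist1h2be, 14.1% in Hist1h2ac and 0% in Hist1h1t. Hist3h2ba (22.1%) and Hist3h2bb-ps (30.0%) shared windows only with each other. The values of Hist1h2ai, Hist1h4m and Hist1h2bl are therefore uncertain as values of single genes. Hist1h1t and Hist1h2ac, with the lowest shares, each had a ratio of 1.93 in the Zfp217 RIP. Their intervals were wide, at 0.796 to 5.12 for Hist1h1t and 1.22 to 3.08 for Hist1h2ac, so whether the ratios are alike was not resolved.

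Variant histones are mostly made from polyadenylated mRNAs and not tied to S phase, and were given for comparison. Of 11 variant genes, 4 were listed for Mettl3 and 8 for Zfp217. Of those kept, 3 of 3 and 2 of 7 were at least 2-fold higher on the log2 scale, against 51.1% and 49.1% of all kept transcripts. The median log2 ratios were 1.67 for Mettl3 and 0.77 for Zfp217, against 1.02 and 0.98 over all kept transcripts. Without inputs under 0.01 FPKM, 2 of 2 and 2 of 7 variant genes were at least 2-fold higher, against 37.6% and 28.4% of transcripts. With an input of at least 1 FPKM these were 1 of 1 and 1 of 6, against 33.8% and 20.7%. Counts for this and the next lists take 1 transcript per gene, the one with the highest mean FPKM of RIP and input. The shares of all kept are per transcript. The listed share of all annotated genes was not computed, so numbers of listed genes do not show more or less frequent listing than elsewhere. Ratios given for these lists are of single transcripts. Where a gene has several, fragments can be split among them, which the intervals do not cover. H2afx, whose mRNA also carries the stem-loop in M21 (822 bases before the model's end), was at 51.9 FPKM in the input and 96.3 in the Zfp217 RIP, a ratio of 1.85 (1.64 to 2.10). A transcript of H2afz, the H2A variant of promoters, was at 7.07 FPKM in the input and 28.7 in the Zfp217 RIP, a ratio of 4.05 (2.14 to 7.84). A nonsense-mediated decay transcript of H2afz was listed at 0 in the input and at 10.6 FPKM for Mettl3 and 6.80 for Zfp217, and a retained-intron transcript at 0 and 1.24 for Zfp217. H2afv, a close relative of H2afz, had a ratio of 1.57 (1.06 to 2.45). Cenpa, the H3 variant of centromeres, was at 15.4 FPKM in the Mettl3 RIP and 4.14 in the input, a ratio of 3.72 (2.55 to 5.46), while the same transcript had a ratio of 1.54 (1.001 to 2.46) in the Zfp217 RIP. A nonsense-mediated decay transcript of Cenpa had a ratio of 1.83 (1.17 to 2.92) for Zfp217. A retained-intron transcript of H3f3a, an H3.3 gene, had ratios of 3.12 (0.983 to 11.96) for Mettl3 and 4.01 (1.27 to 15.6) for Zfp217. H3f3b, the other H3.3 gene, was not listed.

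Of 23 factors that transcribe, process or degrade histone mRNA, 10 were listed for Mettl3 and 9 for Zfp217. As for the variants, the listed share of all annotated genes was not computed. On the log2 scale 4 of 8 kept genes were at least 2-fold higher for Mettl3 and 6 of 7 for Zfp217, against 51.1% and 49.1% of all kept transcripts. Without inputs under 0.01 FPKM these counts were 3 of 7 and 3 of 4, against 37.6% of 5231 and 28.4% of 3733 transcripts. Slbp, the stem-loop binding protein, was in both tables. It was at 5.40 FPKM in the input and 14.04 in the Zfp217 RIP, a ratio of 2.60 (1.86 to 3.70). In the Mettl3 RIP it was at 10.6 FPKM against 5.34, a ratio of 1.98 (1.41 to 2.80). Npat, the coactivator of histone gene transcription, was listed for Mettl3 alone, with a ratio of 1.75 (1.49 to 2.06). Cstf2, a cleavage factor subunit, had a ratio of 4.18 (3.36 to 5.25) in the Mettl3 RIP, and Eri1, an exonuclease that trims histone mRNA ends, 2.06 (1.72 to 2.46).

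Of 19 histone chaperones, 11 were listed for Mettl3 and 12 for Zfp217, again without the listed share of all annotated genes. On the log2 scale 5 of 10 kept genes were at least 2-fold higher for Mettl3 and 8 of 9 for Zfp217, beside the same shares of all kept transcripts, 51.1% and 49.1%. Without inputs under 0.01 FPKM they were 3 of 8 and 2 of 3, beside 37.6% and 28.4%. Nasp, a chaperone of H1 and H3-H4, had ratios of 1.52 (1.28 to 1.80) for Mettl3 and 1.71 (1.44 to 2.05) for Zfp217. In the Mettl3 RIP, a noncoding transcript of Npm1, the nucleolar chaperone, had a ratio of 1.70 (1.3998 to 2.09) and Nap1l1, a chaperone of H2A-H2B, 1.52. A retained-intron transcript of Hjurp, the Cenpa chaperone, had a ratio of 2.11 (1.13 to 4.55). For Zfp217, a retained-intron transcript of Hira, the H3.3 chaperone, had a ratio of 1.58 (0.458 to 7.76). A protein-coding Hira transcript was outside the naming rule and chosen after its values were seen. Its inputs were 0.501 FPKM for Mettl3 and 0.506 for Zfp217. The ratios of this transcript were 8.82 (3.79 to 24.1) for Mettl3 and 6.38 (2.60 to 17.6) for Zfp217. Fragments can be split among the Hira transcripts, and the part this plays was not tested.

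Over the whole series, the estimated depth was 6040000 fragments for the input in the scale of the Zfp217 table, 7060000 for the Zfp217 RIP and 9860000 for the Mettl3 RIP. The tables held 9501 transcripts for Mettl3 and 8120 for Zfp217, and the input was listed at 0 for 31.4% and 38.9% of them. Of 10 embryonic stem cell markers, 7 were listed in each table, such as Sox2 and Nanog. Of 10 markers of fibroblasts and differentiated cells, 1, Vim, was listed. Listing depends on the RIP level and on its ratio to the input, so these counts do not show which markers the cells expressed.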

How the data were processed

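RNA from 1 input and 2 RIP libraries was deposited as FPKM per Ensembl transcript, in a table for each antibody made by the authors. The submitters' processing notes name mm9 as the build, and Cuffdiff, Cufflinks, TopHat2 2.0.8, Bowtie2 and CASAVA 1.4, without roles or order. Log2 fold changes deposited by the authors equalled the log2 FPKM ratios within 0.00466 where the input was above 0, and held a code for infinity elsewhere. Groups came from the antibody labels and titles. Symbols were matched to the histone pattern, and every listed transcript is named. From 3 related lists up to 4 genes were named, those with the highest RIP FPKM at an input of at least 1 FPKM, and Slbp, Npat, H3f3a, H3f3b and H2afz wherever listed. The members and lists were chosen with earlier results of these data known. GENCODE M21 (GRCm38) gave models, sequences and positions, none converted from mm9. Fragment numbers were estimated as FPKM times length less an offset of 140 to 144 bases times depth, set so that low single-transcript genes of 220 to 700 bases came out whole (82.9% to 86.5% within 0.05). Depth was estimated, not stated, and alternatives are in the closing section. Ratio intervals are exact conditional binomial, at 95%. The depth estimate and the intervals were tested on simulated counts only. These had no 1.5-fold limit, no reads shared between genes and no splitting among transcripts. The simulation therefore does not show how well the intervals hold for these data. Python 3.11.15, pandas 2.3.3 and scipy 1.17.1 were used.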

Additional observations from a re-analysis of the deposited data

How the results depend on the processing

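No paired analysis was possible because each group had 1 library. Of 40 alternative values, 30 stayed close to the reported ones (within 1.5 times for counts, 0.1 for log2 medians), 10 moved and 0 reversed. No listed ratio was under 1.5, so no log2 ratio or median could have reversed. Mettl3 had 1 histone member, so several of its alternatives could not have differed. These counts are therefore not a measure of robustness. For Zfp217, the number of histone genes at least 2-fold higher, 1 of 9, was 2 with a pseudocount of 0.1 FPKM, 2 with no filter on low values, 2 as a plain FPKM ratio and 0 with an input of at least 1 FPKM, an alternative added after seeing the data. The median log2 ratio of 0.67 became 0.83 with a pseudocount of 0.1 FPKM. For Mettl3, the count of 1 was 0 with an input of at least 1 FPKM, which left no median, and the log2 ratio of 1.95 became 4.66 with a pseudocount of 0.1 FPKM. Without inputs under 0.01 FPKM, the histone mRNA factors at least 2-fold higher for Zfp217 fell from 6 to 3, and the chaperones from 5 to 3 for Mettl3 and from 8 to 2 for Zfp217; fewer genes were tested there. Depth limited several members. Hist1h2ba, Hist3h2bb-ps and Hist1h4m had 8 or fewer estimated fragments in the Zfp217 RIP. In the input, Hist1h1t had about 8 and Hist1h2ai about 10, and their intervals also spanned 1.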
